A study of Drosophila melanogaster with 4 samples.

Results

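The focal H3K36me2 clusters of chromosome arm 3R are the short regions of this arm that the authors listed as enriched for histone H3 dimethylated on lysine 36. They were chosen by position and length in the combined list of the replicate set: on 3R, not named as depletion, shorter than 10 kb, and with a midpoint beyond 2 Mb from the arm's first base, which is its centromere-proximal end. This gave 1145 of the 6396 enriched clusters listed for the whole genome. The stretch they lie on measures 25.9 Mb and held 1265 enriched clusters in all, so 90.5% of its clusters were focal and 120 were 10 kb or longer. Because the deposited lists themselves decided which regions are members, their lengths, number and positions are given as a description, with no test.

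The series profiled ML-DmBG3-c2 cells of Drosophila melanogaster by chromatin immunoprecipitation and sequencing (ChIP-seq). This cultured line derives from the nervous system of larvae in the third instar, is of unknown sex in the labels, and has the genotype y v f mal. There are 2 ChIP replicates, made with a mouse monoclonal antibody to H3K36me2, and 2 replicates of input DNA, all from formaldehyde-fixed, sonicated chromatin of pooled flasks with no treatment named. The free-text descriptions of some samples contradict their titles: the library titled ChIP replicate 1 carries the description of an input, and ChIP replicate 2 and input replicate 1 name both kinds of DNA. Groups follow the titles and source names, and which label is right was not tested. No list of the inputs was used here. A single cell line was used, and since no label states that the replicates came from separate cultures, their spread may be technical only.

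Lysine 36 of histone H3 lies where the histone tail leaves the nucleosome core, and its dimethyl form is placed in flies by the methyltransferases Ash1 and NSD (also named Mes-4), while Set2 makes the trimethyl form along transcribed genes. H3K36me2 is known from the bodies of active genes and hampers methylation of the same histone tail by Polycomb repressive complex enzymes. Ash1 is a Trithorax-group protein that keeps developmental genes, among them Hox genes, in an active state, and 3R carries both Hox gene complexes of the fly. Coordinates in the files are on FlyBase r5, and no annotation or genome of that release was used here, so clusters are identified by position and no gene or sequence is assigned to them.

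The lists give positions and a score that is the authors' own value, on a scale that the sources used here do not give. Without read counts, library depth is unknown. Replicate 1 had 5554 clusters and replicate 2 had 5583 clusters over the genome. On 3R there were 1213 in replicate 1, 1239 in replicate 2 and 1397 in the combined list.

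Most focal clusters of 3R were a few kilobases long and covered a modest part of the arm. Their median length was 2623 bp, with the middle 50% between 1853 and 4114 bp. Of the 1145, 350 were shorter than 2 kb, 589 measured 2 to 5 kb and 206 were longer. Together they covered 3.76 Mb, or 14.5% of the stretch, whereas the 120 broad clusters covered 2.12 Mb, or 8.20%. Members of at least 5 kb were 18.0% of the clusters and held 37.5% of the members' sequence.

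The same rule on each replicate's own list found 998 focal clusters in replicate 1 and 1021 in replicate 2, or 1009.5 ± 16.3 (SD, n = 2). They covered 13.2% of the stretch in replicate 1 and 13.1% in replicate 2, which is 13.2% ± 0.0958 (SD, n = 2). The combined list therefore held more focal clusters than either replicate list, and 86 of its members (7.51%) fell short of 1301 bp, below which neither replicate list goes.

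The limit of 10 kb cut through a continuous range of lengths. Just inside it were 3R from 2935452 to 2945308 (9857 bp, score 2.47), from 25650247 to 25660016 (9770 bp, score 2.37) and from 25941477 to 25951211 (9735 bp, score 1.47). Just outside were 3R from 20439888 to 20449895 (10008 bp, score 2.52), from 12369620 to 12379744 (10125 bp, score 1.35) and from 18277845 to 18288011 (10167 bp, score 2.02). Scores on the inner and outer side of the limit covered a similar range. At the position limit, the first member ran from 2166977 to 2170821, and the last short cluster before it ran from 1830452 to 1833548, with 333428 bp free of any cluster between them.

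Focal clusters occurred in every 1 Mb block of the stretch, in numbers that differed between blocks. Across the 25 full blocks the count had a median of 43 and ranged from 24 to 64, a ratio of 2.67. The covered share of a block ranged from 7.63% to 22.5%. The variance of the counts was 3.05 times their mean. The last, partial block at the distal end of the arm held 44 members.

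**Figure D1:**
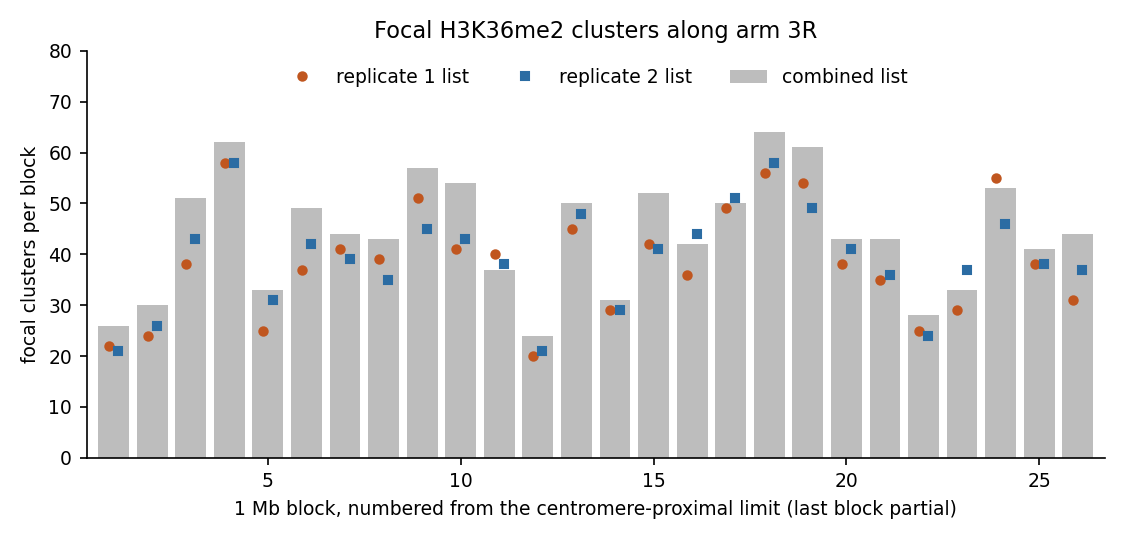
Number of focal H3K36me2 clusters in each 1 Mb block of arm 3R, numbered from the centromere-proximal limit at 2 Mb; bars show the combined list, circles replicate 1 and squares replicate 2, and the last block is partial. Blocks 4 and 18, with 62 and 64 members, stand above block 12, with 24.

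The densest block was 3R from 19000001 to 20000000, with 64 members in the combined list, 56 focal clusters in replicate 1 and 58 in replicate 2. It was followed by 5000001 to 6000000, with 62 members and 58 focal clusters in each replicate, and by 20000001 to 21000000, with 61 members, 54 focal clusters in replicate 1 and 49 in replicate 2. The sparsest was 13000001 to 14000000, with 24 members, 20 focal clusters in replicate 1 and 21 in replicate 2. Next came 2000001 to 3000000, beside the position limit, with 26 members, 22 in replicate 1 and 21 in replicate 2, and 23000001 to 24000000, with 28 members, 25 in replicate 1 and 24 in replicate 2. In every one of these 6 blocks the replicates lay within 5 clusters of each other. The blocks were picked as the extremes of the combined list, which comes from the same replicates, so the gap between dense and sparse blocks is a description.

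Block counts followed each other in the replicates. Over the 25 full blocks, Pearson's r between the replicate lists was 0.93 and Spearman's rho was 0.89, as a description, since neighbouring blocks are not independent and the lists may share an input. The counts differed by 2 clusters at the median and by 9 at most, in the block from 25000001 to 26000000, with 55 focal clusters in replicate 1 and 46 in replicate 2. The median score of a block lay between 0.50 and 0.79 and its median length between 2223 and 3213.5 bp. Over the 25 full blocks, the number of members had a Spearman's rho of -0.10 with the median score and 0.19 with the median length, as a description. The number of focal clusters in a block went with its number of broad clusters only weakly (Spearman's rho of 0.17 over 25 blocks).

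Split into 4 equal parts from the centromere-proximal limit outward, the stretch held 272, 285, 325 and 263 members. Replicate 1 had 224, 255, 286 and 233 focal clusters there and replicate 2 had 241, 247, 293 and 240. The third part held the most in all 3 lists. The median score of the members was 0.66 in the innermost and outermost parts and 0.59 in the inner parts between them.

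Spacing was strongly uneven, with many short gaps and a long tail. The gap from a member to the next cluster of any length had a median of 3615 bp, with the middle 50% between 1218 and 10914 bp, a mean of 15.5 kb and a maximum of 359812 bp. The SD of the gaps was 2.30 times their mean. Gaps under 1 kb followed 244 members (21.3%), and gaps of 1 to 5 kb another 436 (38.1%). Gaps of 20 to 100 kb followed 153 members and gaps of 100 kb or more 41. The nearest neighbour on either side lay 1603 bp away at the median.

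The separate replicate lists had the same shape of spacing with somewhat longer gaps. Replicate 1 had a median gap of 4384.5 bp and replicate 2 a median gap of 4198 bp, and the SD was 2.15 times the mean in replicate 1 and 2.11 times the mean in replicate 2. In replicate 1, 44 focal clusters were followed by gaps of at least 100 kb, as were 43 in replicate 2. The shortest median gap was thus that of the list with the most clusters, the combined one.

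**Figure D2:**
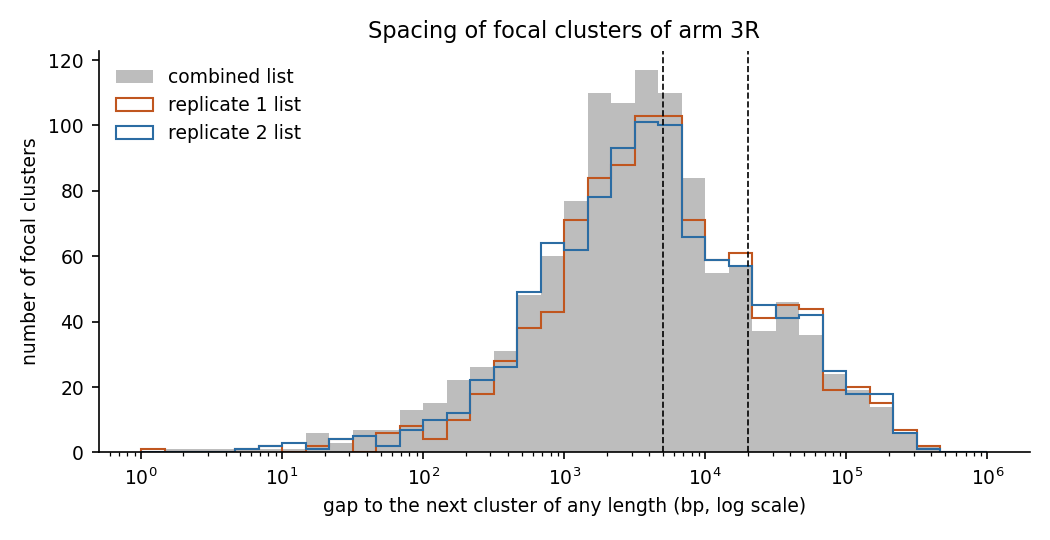
Gap from each focal cluster of arm 3R to the next cluster of any length, on a logarithmic axis in bp; grey bars show the combined list, outlines the replicate lists, and dashed lines mark the 5 kb and 20 kb limits used for grouped and isolated clusters. The median gap is 3615 bp in the combined list, 4384.5 bp in replicate 1 and 4198 bp in replicate 2.

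Most members stood in groups. A group was defined as a run of at least 2 focal clusters with gaps under 5 kb and no broad cluster between them, and an isolated cluster as a member with no cluster of any length within 20 kb on either side. By these limits 889 members (77.6%) were grouped, 36 (3.14%) were isolated and 220 (19.2%) were neither. Those that were neither lay 16 to 19862 bp from the nearest cluster of any length, so they are no class of middle spacing. Over all enriched clusters of the combined list, 4.50% were isolated by the same distance, so nothing particular to the members is read from their share. The same limits gave combined-list grouped shares of 79.8% on arm 2L and 81.5% on 3L, without their centromere-proximal 2 Mb. Nothing particular to 3R is read from its grouped share either. In the replicates' own lists, 722 focal clusters of replicate 1 (72.3%) and 761 of replicate 2 (74.5%) were grouped, and 44 and 48 were isolated.

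The 277 groups were mostly small. Of these, 128 held 2 members, 64 held 3, 32 held 4 and 53 held 5 or more, up to 9. A group spanned 12.5 kb at the median and 57.9 kb at most, and its members covered 73.6% of that span at the median. The replicate lists gave 247 groups in replicate 1 and 252 in replicate 2, with the largest holding 10 focal clusters in each.

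The largest group by members ran from 7777518 to 7820681 on 3R, with 9 clusters over 43.2 kb and gaps of 228 to 4418 bp. Its clusters were 1628 to 6987 bp long and their combined scores ran between 0.23 and 1.45. The strongest, from 7791991 to 7798977, scored 1.79 in replicate 1 and 1.504 in replicate 2. The next, from 7808761 to 7814281, scored 1.40 and 1.45. Of the 9 members, 7 were overlapped in both replicate lists. The other two, with combined scores of 0.23 and 0.25, were overlapped in a single list each.

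The second group of 9 ran from 20399314 to 20437933, over 38.6 kb, in the third densest block. Members with high and low scores lay side by side in it. The cluster from 20411753 to 20418495 scored 1.92 in replicate 1 and 1.89 in replicate 2, and 20 bp further on, the cluster from 20418516 to 20420211 scored 0.35 in replicate 1 and had no match in replicate 2. Here 5 of 9 members were overlapped in both lists and 1 in neither.

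The third, from 25820664 to 25878544, had 8 members over 57.9 kb, the widest span of any group. It held a pair of long clusters, from 25837810 to 25847461 (2.10 in replicate 1 and 1.68 in replicate 2) and from 25850513 to 25859810 (2.69 and 2.34). In this group 7 members were overlapped in both lists. The remaining member, from 25820664 to 25821794, was the shortest at 1131 bp and was overlapped in neither.

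Group membership went with little else that was measured. The median score was 0.57 for isolated members, 0.66 for those neither isolated nor grouped and 0.62 for grouped members. The median length was 2518, 2831 and 2592 bp. Scores of the matching clusters in replicate 1 had medians of 0.80, 0.86 and 0.86 in the same order, and those in replicate 2 had 0.80, 0.82 and 0.81. Members without a match are left out of these replicate medians. Across the 1145 members, the distance to the nearest cluster had a Spearman's rho of 0.0069 with score and 0.011 with length. Neighbouring members less than 5 kb apart did not share a level either. Over 612 such pairs the rho between their scores was -0.0013. It was -0.06 over 395 pairs in replicate 1 and -0.04 over 411 in replicate 2, counting only pairs with both members matched. Pairs at least 20 kb apart had rhos of 0.13 in the combined list, 0.31 in replicate 1 and 0.19 in replicate 2. These are descriptions across clusters of the same libraries.

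A broad cluster lay within 5 kb of 125 members (10.9%), of which 67 were grouped and 58 were neither grouped nor isolated. By definition, no isolated member can have a broad cluster so near. These 125 had a median score of 0.70 and a median length of 3050 bp, against 0.62 and 2592.5 bp for the other 1020. The matching clusters scored 0.92 at the median in each replicate for members near a broad cluster, against 0.85 in replicate 1 and 0.79 in replicate 2 for the others. Here too members without a match are left out, and a match can itself be a broad cluster. The difference was not tested.

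The 36 isolated members lay 20.9 to 129.6 kb from the nearest cluster, with a median of 36278 bp. They were spread over the arm, with 13, 6, 8 and 9 in its 4 parts from the proximal limit outward. In replicate 1, 27 of the 36 had a single cluster within 20 kb, 8 had none and 1 had more; in replicate 2 the numbers were 27, 7 and 2. Nearly all replicate clusters are also in the combined list, so the choice of these members leaves little room for a second cluster near them, and the counts are no separate support for their isolation.

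Among isolated members overlapped in both lists, the most remote ran from 8039525 to 8043250 on 3R (3726 bp), 188.8 kb from the cluster before it and 129.6 kb from the one after it. It scored 0.76 in replicate 1 and 0.80 in replicate 2. The cluster from 2479287 to 2481387, 101.5 kb from its nearest neighbour, scored 0.57 and 0.51. The cluster from 22078127 to 22079977, 64.9 kb away, scored 0.51 and 0.38. All 3 were weak to moderate for the arm. The cluster from 18038271 to 18043152, 59.97 kb from its neighbour, was stronger, with 1.47 in replicate 1 and 1.10 in replicate 2. The cluster from 15129205 to 15132972, 59.8 kb away, scored 1.20 and 0.82.

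Long stretches between neighbouring members added up to a large part of the arm. There were 52 of 100 kb or more, which took up 8.78 Mb, or 33.9% of the stretch, and 17 of them held a broad cluster. The longest ran from 23794480 to 24154291 (359.8 kb) and the next from 12469995 to 12813967 (344.0 kb), and neither held a broad cluster or a whole cluster of either replicate list. The third, from 18604064 to 18880923 (276.9 kb), held 1 broad cluster in the combined list and 1 cluster in each replicate list. Absence from the lists means only that nothing there met the criteria of the authors' caller, at a depth that is unknown.

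Of the 1145 members, 826 were overlapped by a cluster of both replicate lists, or 72.1% (95% Wilson interval 69.5 to 74.7%, counting error only). Over all enriched clusters of the combined list the share was 73.4%. Another 100 members were overlapped in replicate 1 alone and 91 in replicate 2 alone. The remaining 128, or 11.2% (9.48 to 13.1%), had no overlap in either list, beside 10.4% over all enriched clusters. Both shares were thus close to those over all enriched clusters. By its name the combined list comes from the same replicates, so the overlap describes how the lists relate and is not independent support for a cluster.

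Isolated and grouped members were overlapped at shares whose intervals overlap, which does not show that the shares are equal. The intervals count clusters of the same libraries as independent, and the isolated members are few. Of the isolated members, 24 of 36 were overlapped in both lists (66.7%, 50.3 to 79.8%), with 4 in replicate 1 alone, 4 in replicate 2 alone and 4 in neither. Of the members neither isolated nor grouped it was 161 of 220 (73.2%, 66.97 to 78.6%), and of the grouped members 641 of 889 (72.1%, 69.1 to 74.95%). Every member was overlapped in both lists in 112 of the 277 groups (40.4%), and no member was in 17 groups. The share of groups asks for all members of a group at once, a stricter demand, so it cannot be set against the shares of members.

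Agreement went with length. None of the 86 members shorter than 1301 bp, and none of the 56 from there to 1500 bp, was overlapped in both lists. The share was 14.7% (8.99 to 23.2%) for the 95 members of 1500 to 1750 bp, 47.8% (38.8 to 56.9%) for the 113 members of 1750 to 2000 bp, and 88.7% (80.8 to 93.5%) for the 97 members of 2000 to 2250 bp. It reached 97.4% for the 269 members of 3 to 5 kb, and all 206 members of 5 kb or more were overlapped in both lists. Conversely, every member found in neither list was shorter than 2 kb. Neither replicate list held a cluster under 1301 bp, and overlap was counted from 1 bp, which longer members meet more easily. The link with length is therefore given as a description. Across the full blocks of 1 Mb the share overlapped in both lists ranged from 62.3% to 86.5%. By sequence, the 826 members overlapped in both lists held 86.3% of the members' bases, and those in neither held 4.42%.

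**Figure D3:**
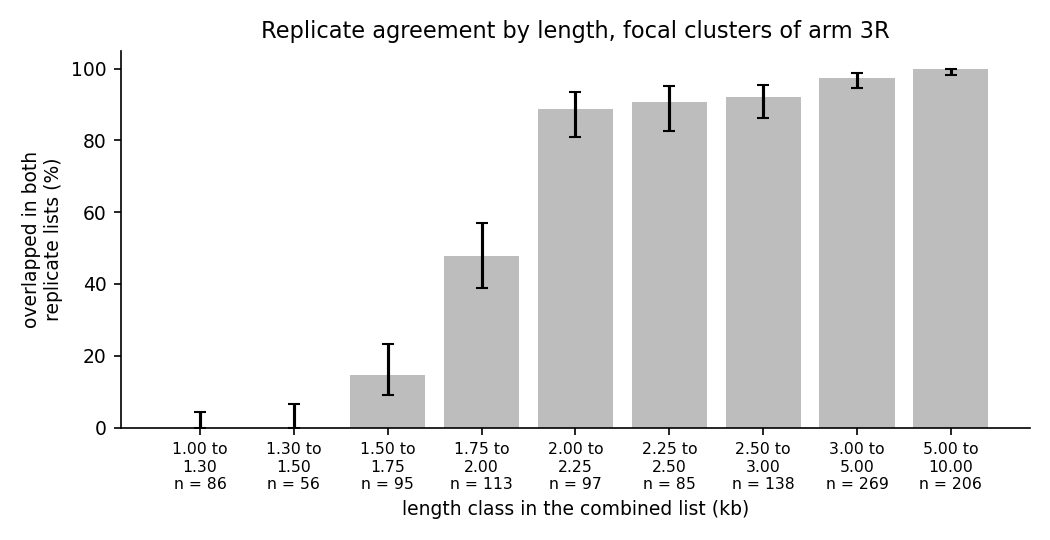
Share of focal clusters of arm 3R overlapped by a cluster of both replicate lists, by length class in the combined list, with 95% Wilson intervals and the number of clusters in each class under the axis. The share is 14.7% in the class of 1500 to 1750 bp and 88.7% in the class of 2000 to 2250 bp.

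In the separate replicate lists, short clusters also had the lowest share with an overlap in the other list. Of the focal clusters of replicate 1, 160 of 239 under 2 kb had an overlap in replicate 2 (66.9%, Wilson interval 60.8 to 72.6%), against 534 of 560 of 2 to 5 kb (95.4%, 93.3 to 96.8%) and 199 of 199 of 5 kb or more. Of those of replicate 2, 174 of 266 under 2 kb had an overlap in replicate 1 (65.4%, 59.5 to 70.9%), against 563 of 575 (97.9%, 96.4 to 98.8%) and 180 of 180. These shares ask for an overlap in 1 list and cannot be set against those of the members, which ask for both.

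Score and length were linked among the longer members. Spearman's rho between them was 0.72 across the 795 members of 2 kb or more, and 0.74 in each replicate list (759 and 755 focal clusters). Below 2 kb it was -0.15 across 350 members, 0.30 across 239 focal clusters in replicate 1 and 0.16 across 266 in replicate 2. The median score was 0.33 for the 86 members under 1301 bp, 0.20 for the 56 members from there to 1500 bp, and 0.28 for those of 1750 to 2000 bp. The plot of length and score shows this as a shallow trough.

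**Figure D4:**
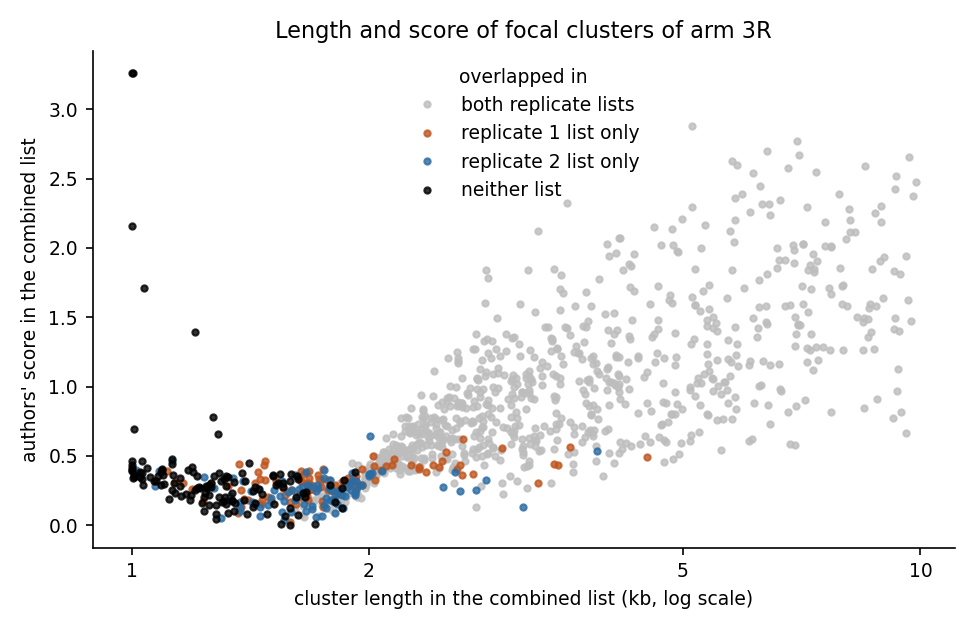
Authors' score against length (kb, logarithmic axis) of the 1145 focal clusters of arm 3R in the combined list, coloured by the replicate lists that overlap them. Black points, overlapped in neither list, all lie under 2 kb and include 2 with a score of 3.26 at the left edge.

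Agreement also rose with score. With the members ranked by score and split into 4 equal sets, the lowest set, up to 0.34, had 72 of 287 members (25.1%) overlapped in both lists and 82 in neither. The second set had 191 of 286 (66.8%) in both, and the upper sets, above the median score of 0.63, had 98.6% and 98.3%. Split by both measures at 2 kb and at the median score, 564 of 565 long members with higher scores were overlapped in both lists, and so were 194 of 230 long members with lower scores. Of the 342 short members with lower scores the count was 68, and of the 8 short members with higher scores it was 0.

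The members with the highest scores that were covered over at least 50% in both lists were close in score between replicates, as a description. By its name the combined list that ranked them comes from the same replicates, so the choice itself favours high scores in both. The top one ran from 5954264 to 5959390 on 3R (5127 bp), in a group of 3, and scored 2.86 in replicate 1 and 2.90 in replicate 2. The cluster from 16365648 to 16372631 (6984 bp) scored 2.82 and 2.89, and that from 11812887 to 11819277 (6391 bp), only 39 bp after its left neighbour, scored 2.83 and 2.58. The clusters from 16783438 to 16790444 (7007 bp; 2.62 and 2.71) and from 26416397 to 26426080 (9684 bp; 2.69 and 2.63) followed. The last of these stood 141.3 kb from the next cluster on its distal side, whereas the other four had a neighbour within 2 kb.

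The highest scores of all belonged to members that neither replicate list held. The clusters from 4695321 to 4696324 (1004 bp) and from 20035596 to 20036597 (1002 bp) tied at 3.26. For the first, the nearest replicate cluster lay 24.2 kb away in replicate 1 and 23.7 kb away in replicate 2. For the second, it lay 249 bp away in replicate 1 and 348 bp away in replicate 2. Of the 86 members under 1301 bp, 5 scored above 1, and none of these was overlapped in either list. The other three ran from 27160174 to 27161174 (score 2.16), from 3929514 to 3930549 (1.71) and from 15935687 to 15936891 (1.40). These members were singled out after their values were seen. By comparison, the longest members found in neither list scored low: 0.38 from 20768722 to 20770641 (1920 bp), 0.33 from 17179438 to 17181296 (1859 bp) and 0.13 from 7707730 to 7709577 (1848 bp).

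Among the 826 members overlapped in both lists, scores followed each other closely. Spearman's rho between the scores of the matching clusters was 0.91 and Pearson's r was 0.92, as a description across clusters of one pair of libraries. The median score was 0.94 in replicate 1 and 0.90 in replicate 2, and the scores of a member differed by 0.12 at the median and by 0.34 or less for 90% of them. The rank order was weaker among short members, with a rho of 0.38 over the 68 under 2 kb and 0.92 over the 206 of 5 kb or more.

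**Figure D5:**
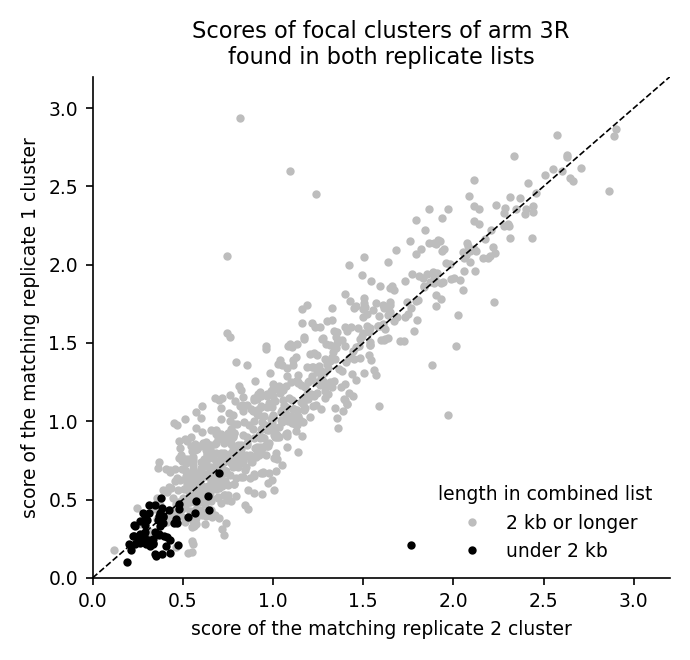
Score of the matching cluster in replicate 1 against that in replicate 2 for the 826 focal clusters of arm 3R overlapped in both lists, with the line of equality dashed and clusters under 2 kb in black. Most points lie near the line, and 90% of members differ by 0.34 or less.

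The widest differences came from members whose match was a broad cluster in one list. From 24557085 to 24560931, the match in replicate 1 was 39200 bp long and scored 2.94, while that in replicate 2 was 2665 bp long and scored 0.82. From 6532737 to 6534713, replicate 1 had a match of 1705 bp (0.21) and replicate 2 a match of 12665 bp (1.76). From 14973740 to 14978476, replicate 1 had a match of 33897 bp (2.60) and replicate 2 a match of 3573 bp (1.09). These 3 members, named after their values were seen, lay 291, 16 and 22 bp from the neighbouring cluster in the combined list. In all, 5 members matched a broad cluster in replicate 1 and 1 did in replicate 2.

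Boundaries were placed closely for most of the members that had exactly 1 match in each list. For the 759 members with exactly 1 match in each list, the starts of the matches differed by 108 bp at the median between the replicates and the ends by 111 bp. Starts were within 200 bp for 69.7% and ends for 70.8%, and 39 starts and 32 ends differed by more than 1 kb. The combined cluster was longer at the median (3117 bp) than its match in replicate 1 (2866 bp) or replicate 2 (2784 bp). Of the 612 gaps under 5 kb between neighbouring members, 395 had both members overlapped in replicate 1, and a replicate 1 cluster bridged 6 of these (1.52%). In replicate 2 it was 8 of 411 (1.95%). The remaining gaps cannot be judged in a list that lacks a member beside them. In the other direction, 37 members spanned several clusters of replicate 1 and 52 spanned several of replicate 2.

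Read from the replicates, 990 of the 998 focal clusters of replicate 1 and 1011 of the 1021 of replicate 2 overlapped the combined list. Of these, 38 in replicate 1 and 51 in replicate 2 overlapped only clusters that are not focal members there. The other replicate list overlapped 893 focal clusters of replicate 1 (89.5%) and 917 of replicate 2 (89.8%).

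Set beside arms 2L and 3L treated in the same way, with the 2 Mb next to the centromere left out, 3R had values between those of 2L and 3L for density and coverage. The replicate lists held 39.0 ± 0.628 focal clusters per Mb on 3R, against 36.9 ± 0.135 on 2L and 40.97 ± 0.220 on 3L (each with its SD over n = 2). The covered share was 13.2% ± 0.0958 on 3R, against 12.7% ± 0.0627 on 2L and 14.6% ± 0.163 on 3L. Grouped clusters made up 73.4% ± 1.55 on 3R, 75.2% ± 1.46 on 2L and 74.98% ± 1.21 on 3L, within the spread of the replicates. Members of the combined list overlapped in both lists made up 72.1% on 3R, 71.0% (67.9 to 73.9%) on 2L and 70.3% (67.4 to 72.9%) on 3L. The Wilson intervals overlap, which does not show that the shares are equal. The replicate values of clusters per Mb and of covered share did not overlap between the arms, but an arm is a single unit and the differences were not tested.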

How the data were processed

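ChIP-seq for H3K36me2 gave 3 lists of regions, from replicate 1, from replicate 2 and from both combined. The score of each region is the authors' own value in the deposited lists. Bowtie 0.12.7 is named, per the submitters' processing notes, and the file headers give FlyBase r5 as the build. The region caller, its threshold, the input it used and the way replicates were combined are not stated in the sources at hand. Depth is unknown, so no detection limit was computed, and Wilson intervals cover counting error only.

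Lists were read with Python 3.11.15, numpy 2.4.6, pandas 2.3.3 and SciPy 1.17.1, and figures were drawn with matplotlib 3.10.9. Positions in the deposited lists were used as given, 1-based. Overlap was counted from 1 bp, a gap is the number of bases between neighbouring clusters, and a score was matched by the largest overlap. The interval functions were tested on simulated data with known answers. Regions named in the text are the 5 highest-scoring members covered over 50% in both replicate lists, the 5 most remote isolated members among those overlapped in both lists, the 3 largest groups, the 3 densest and 3 sparsest blocks, the 3 longest stretches, the members at the limits and the 3 longest in neither list; others are marked. Members, limits and named regions were chosen with earlier results of these data known. No test was made between samples, because no list of the inputs was used.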

Additional observations from a re-analysis of the deposited data

How the results depend on the processing

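Values were recomputed under other settings, and moves are judged against the SD between the replicate lists, the Wilson interval or, for counts, a factor of 1.5. The limits set the share of grouped members, which was 53.3% with gaps under 2 kb and 88.4% with gaps under 10 kb, and the number of isolated members, which was 86 from 10 kb and 14 from 50 kb. With 500 kb blocks the ratio of the fullest to the emptiest block was 6.29. Keeping the highest 50% of scores left 478 focal clusters, of which 98.7% were overlapped in both lists, with a median gap of 11749.5 bp, 75 isolated clusters, 44.6% grouped, 8.93% of the stretch covered, a median score of 1.22 and a block ratio of 4.29. With members under 5 kb, the shares were 66.0% overlapped in both lists, 67.6% grouped and 9.08% covered, and the median score was 0.50. Merging clusters less than 1 kb apart gave 74.8% overlapped in both lists, a median gap of 5173 bp, 66.2% grouped and 12.1% covered. Leaving out clusters shorter than any replicate cluster gave 78.0% overlapped in both lists, a median gap of 3957 bp, 75.8% grouped, 14.2% covered and a median score of 0.67. With only clusters overlapped in both lists, a setting chosen after seeing the data, the median gap was 5171.5 bp, 66.7% were grouped, 12.5% of the stretch was covered, the median score was 0.86 and the block ratio was 2.82. Asking members of the combined list for an overlap in a single replicate list, a looser demand, gave a share of 80.1 to 80.9%. The focal clusters of each replicate's own list gave a median gap of 4198 to 4384.5 bp and a grouped share of 72.3 to 74.5%. Their covered share was 13.1 to 13.2% and their block ratio 2.76 to 2.90. Asking for 50% of a member to be covered in each list gave 71.2%, inside the interval of the main value. The causes of these moves were not tested beyond the construction of each setting, which removes, joins or reclassifies clusters. No paired analysis was possible because no list of the inputs was used and no test compares the groups.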

Other observations

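The combined list named 4 regions of 3R as depletion, 3 of them beyond 2 Mb. They ran from 7044654 to 7046295 (score -0.0968), from 12266173 to 12267957 (-0.0262) and from 24963122 to 24964708 (-0.0339). Each of the 3 was overlapped by a cluster that replicate 2 lists as enriched, with scores of 0.042, 0.14 and 0.26, and the second also by a replicate 1 cluster with a score of 0.0011. They lay 4279, 191 and 1928 bp from the nearest focal cluster.

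Scores of neighbouring focal clusters at least 20 kb apart had a Spearman's rho of 0.13 over 170 pairs in the combined list, 0.31 over 124 pairs in replicate 1 and 0.19 over 121 pairs in replicate 2, as a description across clusters of the same libraries.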
